A study of Mus musculus with 12 samples.

Results

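RNA of 10 genes of transforming growth factor beta (TGF-beta) signalling was compared between 4 media. The cells were RAW264.7, a mouse line with macrophage character, cultured for 24 h. The genes were Tgm2, Pmepa1, Skil, Ski, Tgif1, Smad7, Smad3, Tgfb1, Tgfbr1 and Tgfbr2. They were taken by symbol from the array annotation, and all 10 were found among 30472 named genes, each with 1 probe set. All 10 also exceeded the filter on dim probe sets, which 18122 genes passed. The media were KO medium, conditioned by JMJD6-KO PyMT-41C cells (arrays numbered 1, 2 and 3), SCR+CSH medium, which is SCR medium with CSH, named in the labels as a blocker of the ANXA-1 receptor (1, 2 and 4), SCR medium, conditioned by SCR PyMT-41C cells (1, 3 and 4), and normal medium, called NM (2, 3 and 4). Conditioned media were mixed 50:50 with RPMI holding 10% serum. The RAW264.7 cells that were measured carried no JMJD6 knockout, which was made in the medium donors. The labels name no group with CSH in normal medium, no vehicle group and no number of knockout clones. They do not say whether the 3 arrays of a medium came from separate cultures. The p-values below therefore rest on a spread between arrays that may be technical.

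TGF-beta is a secreted cytokine that is held latent until it is released, after which it binds the type II receptor, and this recruits and phosphorylates the type I receptor. The type I receptor activates Smad2 and Smad3, which enter the nucleus with Smad4 and regulate target genes. Several targets, among them Smad7, Skil and Pmepa1, encode inhibitors of the same pathway, so their RNA is widely read as a sign of pathway feedback. Here only RNA was measured, and the activity of the pathway was not. In macrophages TGF-beta is known for restraint of inflammatory activation and for roles in clearance and tissue repair.

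Signals were summarised by RMA and are given in log2 units, where 1 unit is a 2-fold difference, and group values are mean ± SD with n = 3. Differences come from limma fitted over all 12 arrays and all 18122 genes, and a gene was counted as changed at a Benjamini-Hochberg adjusted p below 0.05. Array medians lay between 5.40 and 5.52. Signals of different probe sets have no common scale, so levels were compared between media and not between genes. All 10 macrophage markers, among them Cd68, Adgre1, Csf1r and Lyz2, lay above the array median on every array, with list means of 13.6 to 13.7 in KO medium, 13.5 to 13.8 in SCR+CSH medium, 13.5 to 13.7 in SCR medium and 13.8 to 13.9 in NM. Single macrophage markers differed between media in opposite directions. Csf1r, the M-CSF receptor gene, averaged 11.78 in KO medium, 12.13 in SCR+CSH medium, 11.90 in SCR medium and 13.70 in NM, and Adgre1, a macrophage surface receptor gene, averaged 9.65, 9.78, 9.79 and 11.24 in the same order. Itgam, an integrin gene, spanned 15.18 to 15.46 in KO medium, 14.79 to 15.21 in SCR+CSH medium, 14.89 to 15.09 in SCR medium and 13.92 to 14.14 in NM, and Cd14 averaged 13.91, 13.52, 13.44 and 12.83 in that order. The part of these shifts in the results that follow was not tested. The list of 10 epithelial markers had means of 5.10 to 5.11, 5.09 to 5.12, 5.05 to 5.15 and 5.07 to 5.08 in the same order of media. On all arrays of a group, 4 of the 10 lay above the array median in KO medium (Krt7, Krt14, Krt8 and Cldn4), 2 in SCR+CSH medium (Krt7 and Krt14), 3 in SCR medium (Krt7, Krt14 and Krt8) and 3 in NM (Krt7, Krt14 and Cldn4), while Epcam and Cdh1 did so in none. Krt8 and Cldn4, which were listed for some media only, had group means of 5.47 to 5.54 and 5.50 to 5.59, close to the array medians. Of all 30472 named genes, 18122 lay above the array median on at least 3 arrays. None of the 7 named fibroblast markers lay above the array median on all arrays of a group. In bulk RNA, a change in the number of responding cells and a change of RNA per cell cannot be told apart.

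Promoter sequence was at hand in the RefSeq table of GRCm38.p6 for 6 of the 10 genes. Those of 5 are shown because the genes moved in the data described next: Ski, Tgif1 and Tgfb1 were higher in every conditioned medium than in NM, and Tgfbr1 and Tgfbr2 were lower. Each is the 250 bases before the annotated start of the gene, 5′ to 3′ on the strand of the gene, with CAGAC, the Smad-binding letters, and GGGCGG, the Sp1 letters, in capitals on either strand.
Tgif1 (chr17:70853533-70853782, - strand): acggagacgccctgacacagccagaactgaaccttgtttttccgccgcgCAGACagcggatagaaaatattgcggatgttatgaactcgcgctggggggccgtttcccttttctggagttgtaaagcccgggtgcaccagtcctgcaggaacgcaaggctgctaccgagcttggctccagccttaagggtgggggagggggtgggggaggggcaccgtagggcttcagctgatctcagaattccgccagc
Ski (chr4:155222536-155222785, - strand): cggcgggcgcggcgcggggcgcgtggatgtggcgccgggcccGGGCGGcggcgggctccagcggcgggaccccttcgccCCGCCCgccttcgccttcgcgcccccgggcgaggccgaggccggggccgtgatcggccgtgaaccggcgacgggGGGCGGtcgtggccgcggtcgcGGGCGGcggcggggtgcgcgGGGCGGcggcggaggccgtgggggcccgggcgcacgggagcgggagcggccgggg
Tgfb1 (chr7:25686752-25687001, + strand): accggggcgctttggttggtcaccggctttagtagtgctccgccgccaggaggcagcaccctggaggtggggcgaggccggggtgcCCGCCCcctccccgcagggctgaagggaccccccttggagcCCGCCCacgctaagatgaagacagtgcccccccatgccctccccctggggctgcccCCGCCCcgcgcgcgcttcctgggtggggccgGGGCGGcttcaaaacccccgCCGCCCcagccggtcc
Tgfbr1 (chr4:47352972-47353221, + strand): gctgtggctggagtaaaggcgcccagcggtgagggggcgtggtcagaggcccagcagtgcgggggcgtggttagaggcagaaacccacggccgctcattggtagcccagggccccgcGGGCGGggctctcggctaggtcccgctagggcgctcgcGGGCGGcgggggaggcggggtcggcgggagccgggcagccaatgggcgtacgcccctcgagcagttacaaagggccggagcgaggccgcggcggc
Tgfbr2 (chr9:116175364-116175613, - strand): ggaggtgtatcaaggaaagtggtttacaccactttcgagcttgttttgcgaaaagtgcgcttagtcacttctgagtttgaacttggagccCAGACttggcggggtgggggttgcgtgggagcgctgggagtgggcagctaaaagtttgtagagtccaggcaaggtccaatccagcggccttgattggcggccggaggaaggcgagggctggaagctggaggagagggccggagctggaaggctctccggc

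The Tgif1 window held 1 CAGAC, whose first base lay 201 bases before the start, and the Tgfbr2 window held 1, at 160 bases. The windows of Ski, Tgfb1 and Tgfbr1 held none. Those of Ski and Tgfb1 each held 5 matches to GGGCGG and that of Tgfbr1 held 2, with 87.6%, 75.2% and 74.8% G and C. Of 32851 promoters of this length in the table, 42.2% held CAGAC and 32.7% held GGGCGG on either strand. The palindrome GTCTAGAC, the AP-1 letters TGANTCA, the cAMP element TGACGTCA and the TGIF letters TGACAG, present in 0.167%, 6.75%, 1.55% and 15.9% of promoters, were in none of the 6 windows. A match is a description of letters and shows no binding.

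Tgm2 and Pmepa1 separated KO medium from SCR medium. Tgm2 (GRCm38.p6, chromosome 2, 158116405 to 158146392) encodes tissue transglutaminase, an enzyme that crosslinks proteins and takes part in the release of latent TGF-beta. Its signal was 11.13, 11 and 11.36 in KO medium, 10.21, 10.15 and 9.92 in SCR+CSH medium, 10.01, 10.08 and 10.16 in SCR medium, and 7.73, 7.65 and 7.74 in NM. The KO arrays lay above all others and the NM arrays below all others, while SCR+CSH and SCR arrays overlapped. Tgm2 was higher in KO than in SCR medium by 1.08 (SE 0.10, adjusted p = 0.000311), a 2.11-fold difference, and higher in SCR medium than in NM by 2.38 (SE 0.10, adjusted p = 6.2e-09), or 5.19-fold. Between SCR+CSH and SCR medium it differed by 0.01, with a 95% interval from -0.20 to 0.22.

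Pmepa1 (chromosome 2, 173224458 to 173276731) encodes a membrane protein that binds Smad2 and Smad3 and Nedd4-type ubiquitin ligases and dampens the pathway. It read 8.0, 7.58 and 8.10 in KO medium, 6.60, 6.47 and 6.67 in SCR+CSH medium, 6.94, 6.86 and 6.82 in SCR medium, and 5.76, 5.92 and 6.01 in NM. Its 4 groups were all apart, in the order KO, SCR, SCR+CSH and NM. How many of all genes had 4 groups apart was not counted. The step between KO and SCR medium was 1.02 (SE 0.12, adjusted p = 0.00292), and that between SCR medium and NM was 0.98 (SE 0.12, adjusted p = 2.81e-05). In NM, Pmepa1 lay not far above the array medians of 5.44 to 5.46. Whether this dimness altered the size of the steps from NM was not tested. The gap between SCR+CSH and SCR medium, -0.29 (95% interval -0.54 to -0.04), did not pass once adjusted over all genes (adjusted p = 0.77).

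Among all 18122 genes, the difference between KO and SCR medium ranked 9 for Tgm2 and 12 for Pmepa1 by size in either direction. Leaving out any single array gave 0.98 to 1.16 for Tgm2 (adjusted p up to 0.00484) and 0.92 to 1.18 for Pmepa1 (adjusted p up to 0.0208), and both calls held each time. Set against SCR+CSH medium, KO medium was higher by 1.07 for Tgm2 and by 1.31 for Pmepa1, with SE 0.10 and 0.12 and the same adjusted p of 0.000152. The comparisons of KO medium with SCR and with SCR+CSH medium share the KO arrays. Likewise, all comparisons of a conditioned medium with NM share the NM arrays, so they are not independent of each other.

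**Figure D1:**
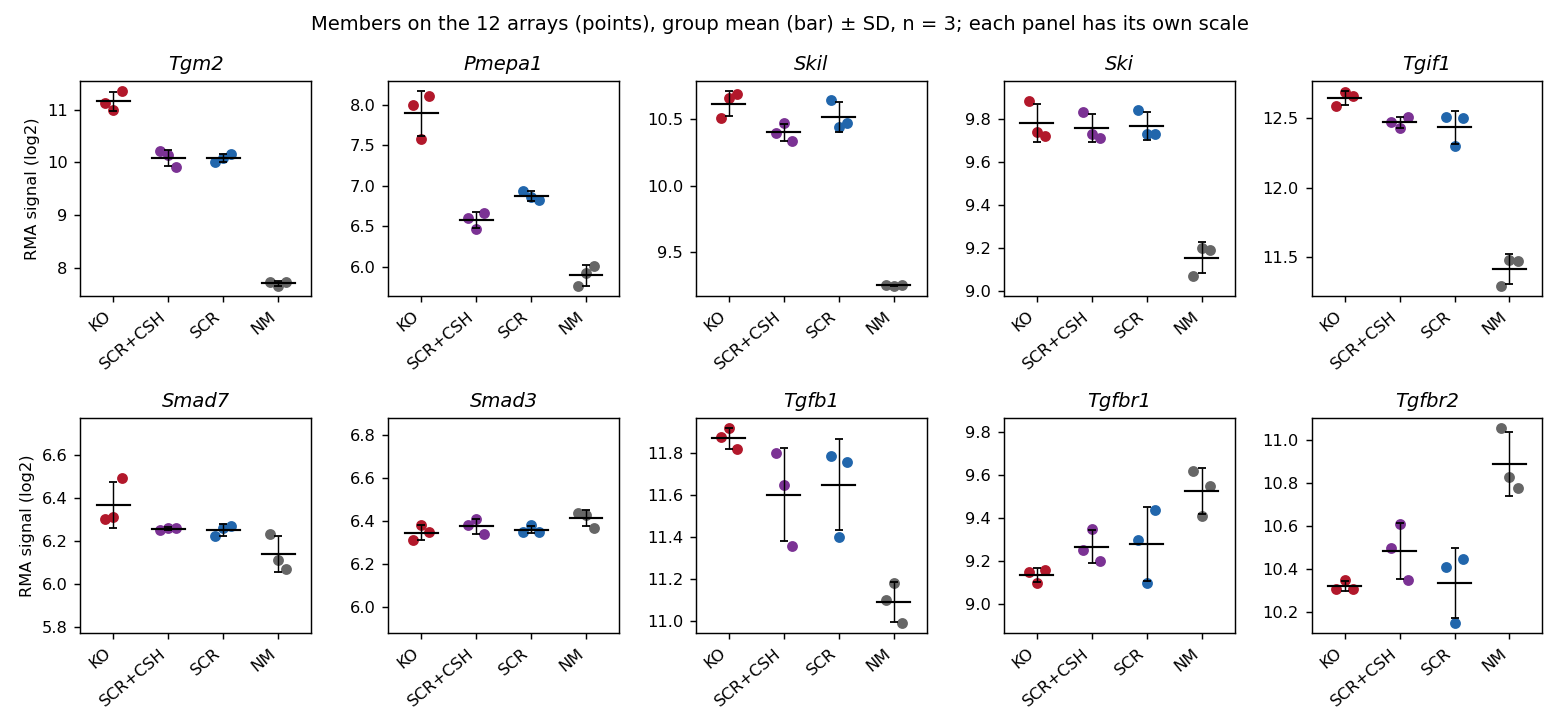
RMA signal (log2, vertical axis) of the 10 genes on the 12 arrays, 1 panel per gene with its own scale; points are arrays, bars the group mean and whiskers the SD (n = 3), for KO, SCR+CSH, SCR and normal (NM) medium. Tgm2 and Pmepa1 are highest in KO medium, at 11 to 11.36 and 7.58 to 8.10. KO arrays are also the highest, by smaller gaps, for Tgif1, Smad7 and Tgfb1. All conditioned arrays lie above NM for Tgm2, Pmepa1, Skil, Ski, Tgif1 and Tgfb1, and below NM for Tgfbr2.

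The 3 corepressors of Smad-driven transcription rose in each conditioned medium against NM, where 19.3% to 21.4% of all genes rose. None of the 3 passed the test between KO and SCR medium, where 0.27% of all genes did. Skil (chromosome 3, 31095058 to 31122923) encodes SnoN, which represses genes bound by Smad complexes and is itself a TGF-beta target. Skil read 10.51, 10.66 and 10.69 in KO medium, 10.40, 10.47 and 10.34 in SCR+CSH medium, 10.65, 10.44 and 10.47 in SCR medium, and 9.25, 9.24 and 9.25 in NM. Arrays of SCR medium overlapped with those of both other conditioned media, and all 9 conditioned arrays lay above NM. The rise in SCR medium against NM was 1.27 (SE 0.07, adjusted p = 8.72e-08), or 2.42-fold. KO and SCR medium differed by 0.10 for Skil (95% interval -0.05 to 0.25, adjusted p = 0.994).

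Tgif1 (chromosome 17, 70844205 to 70853532), whose promoter is printed above, encodes a homeodomain corepressor that recruits histone deacetylases to Smad complexes. It read 12.59, 12.69 and 12.66 in KO medium, 12.47, 12.43 and 12.51 in SCR+CSH medium, 12.51, 12.30 and 12.50 in SCR medium, and 11.29, 11.48 and 11.47 in NM. The rise in SCR medium against NM was 1.02 (SE 0.07, adjusted p = 4.53e-07), or 2.03-fold. All KO arrays were above all SCR arrays, yet the difference of 0.21 (95% interval 0.05 to 0.37) did not pass (adjusted p = 0.586).

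Ski (chromosome 4, 155154075 to 155222535), the founding member of the family of Skil, read 9.88, 9.74 and 9.72 in KO medium, 9.83, 9.73 and 9.71 in SCR+CSH medium, 9.84, 9.73 and 9.73 in SCR medium, and 9.07, 9.20 and 9.19 in NM. The 3 conditioned media overlapped and all lay above NM. Ski was higher in SCR medium than in NM by 0.61 (SE 0.07, adjusted p = 1.44e-05), or 1.53-fold. Between KO and SCR medium it differed by 0.01 (95% interval -0.13 to 0.16).

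The Smads among the 10 genes moved little. Smad7 encodes the inhibitory Smad that blocks the type I receptor and is a common early target of TGF-beta. Its signal was 6.30, 6.31 and 6.49 in KO medium, 6.25, 6.26 and 6.26 in SCR+CSH medium, 6.22, 6.26 and 6.27 in SCR medium, and 6.23, 6.11 and 6.07 in NM. KO arrays lay above all others, with KO replicate 3 the highest. Smad7 was higher in KO medium than in NM by 0.23 (SE 0.06, adjusted p = 0.011), or 1.17-fold, a call that was lost without KO replicate 3 (0.17, adjusted p = 0.0548). The differences of 0.11 between SCR medium and NM (95% interval -0.02 to 0.25, adjusted p = 0.2) and of 0.12 between KO and SCR medium (-0.02 to 0.25, adjusted p = 0.923) did not pass.

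Smad3 (chromosome 9, 63646766 to 63757994), which carries the receptor's signal to the nucleus, spanned 6.31 to 6.38 in KO medium, 6.34 to 6.41 in SCR+CSH medium, 6.35 to 6.38 in SCR medium and 6.37 to 6.44 in NM. Neighbouring groups overlapped throughout, and no comparison passed. The interval of the difference between SCR medium and NM ran from -0.16 to 0.05. Smad3 and Smad7 were the genes of the 10 that did not pass a stricter filter, 1 above the array median on at least 3 arrays.

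The ligand rose and the receptors fell in conditioned medium. Tgfb1 (chromosome 7, 25687002 to 25705077) encodes the main TGF-beta isoform of macrophages. It read 11.88, 11.92 and 11.82 in KO medium, 11.80, 11.65 and 11.36 in SCR+CSH medium, 11.79, 11.40 and 11.76 in SCR medium, and 11.10, 11.18 and 10.99 in NM. All conditioned arrays lay above NM, and SCR replicate 3 and SCR+CSH replicate 4 were the lowest among them. Tgfb1 was higher than in NM by 0.78 in KO medium (SE 0.12, adjusted p = 0.000145), by 0.51 in SCR+CSH medium (adjusted p = 0.004) and by 0.56 in SCR medium (adjusted p = 0.00223). The KO arrays were above the SCR arrays, but the difference of 0.22 (95% interval -0.03 to 0.48) did not pass (adjusted p = 0.916), and it was 0.10 without SCR replicate 3.

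Tgfbr2 (chromosome 9, 116087695 to 116175363), the ligand-binding type II receptor, read 10.31, 10.35 and 10.31 in KO medium, 10.50, 10.61 and 10.35 in SCR+CSH medium, 10.41, 10.15 and 10.45 in SCR medium, and 11.06, 10.83 and 10.78 in NM. The arrays of every conditioned medium lay below those of NM. It fell by 0.57 in KO medium (adjusted p = 0.000403), by 0.40 in SCR+CSH medium (adjusted p = 0.00541) and by 0.55 in SCR medium (SE 0.10, adjusted p = 0.000599), each against NM. The last is a signal of 0.681 times that in NM.

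Tgfbr1 (chromosome 4, 47353222 to 47414926), the type I receptor kinase ALK5, read 9.15, 9.10 and 9.16 in KO medium, 9.25, 9.35 and 9.20 in SCR+CSH medium, 9.30, 9.10 and 9.44 in SCR medium, and 9.62, 9.41 and 9.55 in NM. SCR replicate 4 reached into the range of NM, while KO and SCR+CSH arrays lay below it. The fall was 0.39 in KO medium (SE 0.09, adjusted p = 0.00248), and this call held with any 1 array left out. In SCR medium the difference from NM was -0.25 (adjusted p = 0.0385), and the call was lost without NM replicate 2 or 4, SCR replicate 1 or 3, or KO replicate 1, with differences of -0.33 to -0.16 and adjusted p up to 0.144 over all single arrays left out. In SCR+CSH medium the difference was -0.26 (adjusted p = 0.03), lost without NM replicate 2 or 4 or SCR+CSH replicate 1 or 4 (adjusted p up to 0.116).

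SCR replicate 3 was the lowest of the SCR arrays for Tgfb1, Tgfbr1 and Tgfbr2 alike, and had the highest median of all arrays, 5.52. Without it, the differences between SCR medium and NM were 0.69 for Tgfb1 (adjusted p = 0.000499), -0.46 for Tgfbr2 (adjusted p = 0.00238) and -0.16 for Tgfbr1 (adjusted p = 0.142). Also without it, KO medium stayed higher than SCR medium for Tgm2 (1.08, adjusted p = 0.00484) and Pmepa1 (1.01, adjusted p = 0.0183). Over all genes, that comparison gave 20 changed genes without the array and 49 with it.

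**Figure D2:**
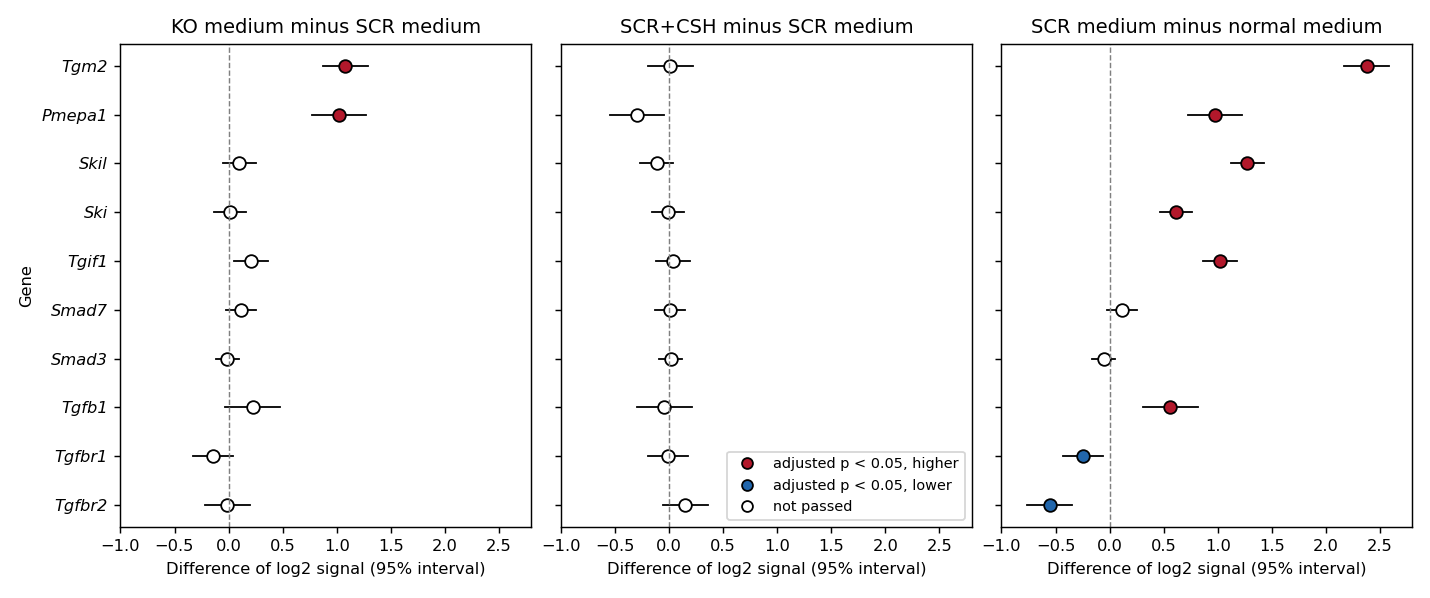
Difference of log2 signal (horizontal axis) for each of the 10 genes, with its 95% interval from limma, in KO minus SCR medium, SCR+CSH minus SCR medium and SCR medium minus NM; filled points passed adjusted p below 0.05. Of the 10, Tgm2 at 1.08 and Pmepa1 at 1.02, passed between KO and SCR medium, none between SCR+CSH and SCR medium, and 8 between SCR medium and NM.

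Between SCR medium and NM, 6 of the 10 genes rose and 2 fell, where 19.3% of all tested genes rose and 15.8% fell. The median difference of the 10 was 0.59, against 0.02 over all genes tested. The 10 genes and the wider lists below were chosen with earlier results of these data known. Their counts and medians beside all genes, here and below, are therefore description only. For 6 genes the SCR arrays all lay above NM and for 1, Tgfbr2, all below, where 23.5% and 19.7% of all genes did so. KO medium against NM gave 7 rises and 2 falls, with 21.4% and 17.6% of all genes rising and falling, and a median difference of 0.71. SCR+CSH medium against NM gave 6 rises and 2 falls, with 20.9% and 14.9% of all genes, and a median difference of 0.56.

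Between KO and SCR medium, 2 of the 10 genes rose and none fell, where 0.254% of all genes rose. The median of the 10 was 0.11, against -0.003 over all genes. KO arrays lay above SCR arrays for 5 of the 10, namely Tgm2, Pmepa1, Tgif1, Smad7 and Tgfb1, where 5% of all genes did so. At an unadjusted p below 0.05, Tgif1 was added to the 2 genes called.

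SCR+CSH medium against SCR medium gave 0 changed genes of the 10 in limma, as over all genes (0%). At an unadjusted p below 0.05 there was 1 of the 10, Pmepa1, and 1131 of the 18122, while array weights called 79 of them and 0 of the 10. Pmepa1 was also the 1 gene whose SCR+CSH arrays all lay below SCR arrays, where 3.08% of all genes did. The intervals of the other 9 genes reached no farther than -0.30 below and 0.36 above zero.

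KO against SCR+CSH medium repeated the pair of rises, Tgm2 and Pmepa1, where 1.21% of all genes rose. KO arrays lay above SCR+CSH arrays for 6 of the 10 and below them for 1, Tgfbr1, against 9.72% and 12.1% of all genes. Skil differed by 0.22 (95% interval 0.06 to 0.37, adjusted p = 0.163) and Tgfb1 by 0.27 (0.02 to 0.52, adjusted p = 0.289). The split of all calls in this comparison depended on scaling, with 219 genes higher and 126 lower as deposited and 120 and 34 after median centring.

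A wider list of 65 genes of the pathway, in 5 lists by role, placed the 10 in context; 41 of the 65 were tested. Of those 41, 12 rose and 7 fell in SCR medium against NM, where 19.3% of all tested genes rose and 15.8% fell, with a median difference of 0.04. In KO medium against NM 13 rose and 8 fell (21.4% and 17.6% of all genes), and in SCR+CSH medium against NM 11 rose and 6 fell (20.9% and 14.9%). In KO against SCR medium 1 rose (0.254% of all genes), and in KO against SCR+CSH medium 3 rose (1.21%). In SCR+CSH against SCR medium 0 of the 41 changed, where limma called 0% of all genes. At an unadjusted p below 0.05, SCR+CSH against SCR medium gave 4 of the 41 and 1131 of all 18122 genes. Among genes that did not pass the filter were the ligand genes Tgfb2, Tgfb3 and Inhbb, the latent TGF-beta binding protein genes Ltbp1 and Ltbp4, the coreceptor gene Tgfbr3, and the targets Ccn2, Tgfbi and Timp1. Gdf15, Junb and Col1a1 were among those not analysed here.

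Modulators of Smad signalling held the largest rise of the wider list in SCR medium. Of 13 tested, 6 rose and 1 fell against NM, beside 19.3% and 15.8% of all genes. The rise of Rnf111 (adjusted p up to 0.105) and the 1 fall (up to 0.146) were each lost without some single arrays. Dab2, an endocytic adaptor that links the receptors to Smads, averaged 13.36 in KO medium, 12.82 in SCR+CSH medium, 12.99 in SCR medium and 11.20 in NM, and its difference between SCR medium and NM was 1.78 (SE 0.05, adjusted p = 4.75e-10). Smurf1, a ubiquitin ligase of the pathway, rose by 0.95 (adjusted p = 8.7e-07), Trim33, a ubiquitin ligase that acts on Smad4, by 0.60 (adjusted p = 5.6e-06) and Fkbp1a, whose product FKBP12 binds the type I receptor, by 0.34 (adjusted p = 0.000672).

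In the main fit, Dab2 was the 1 gene of the wider list that rose in KO against SCR medium, by 0.37 (SE 0.05, adjusted p = 0.00913). That call was lost without KO replicate 1 (adjusted p = 0.0581) or KO replicate 3 (adjusted p = 0.0501), and when the 6 arrays were fitted alone (adjusted p = 0.0641). Smurf1 differed there by 0.32 (adjusted p = 0.152), Rnf111 by 0.14 and Trim33 by 0.13, none of which passed in the main fit. Smurf1 did pass there after quantile normalization (0.30, adjusted p = 0.0415) and with array weights (0.24, adjusted p = 0.04). Acvr1, an activin and BMP type I receptor gene, also passed there with array weights (0.27, adjusted p = 0.0198). Against SCR+CSH medium, Dab2 was higher in KO medium by 0.54 (adjusted p = 0.000221). Smurf1 (0.41, adjusted p = 0.017) and Acvr1 (0.33, adjusted p = 0.022) also passed against SCR+CSH medium. The Smurf1 call was lost without KO replicate 1 or 3 or SCR+CSH replicate 2 (adjusted p up to 0.0798) or with the replicate block (0.0557), and that of Acvr1 without any KO replicate or SCR+CSH replicate 2 or 4 (adjusted p up to 0.112), after median centring (0.0583) or in the 6 arrays alone (0.052).

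Of 6 genes of ligand handling tested, 1 rose and 1 fell in SCR medium against NM, shares near the 19.3% and 15.8% of all genes. Nrros, which encodes a protein that presents latent TGF-beta on myeloid cells, averaged 8.93 in KO medium, 9.16 in SCR+CSH medium, 9.07 in SCR medium and 10.15 in NM, and fell by 1.08 in SCR medium (SE 0.10, adjusted p = 3.02e-06). Furin, the convertase that cleaves the TGF-beta precursor, rose by 0.53 (adjusted p = 0.000624). Between KO and SCR medium Furin differed by 0.35 without passing (adjusted p = 0.285), although the arrays did not overlap. Ltbp2 (-0.13, adjusted p = 0.11) and Ltbp3 (0.08, adjusted p = 0.343) did not pass between SCR medium and NM. The fall of Ltbp2 did pass after quantile normalization (adjusted p = 0.0273) or median centring (0.0442). It also passed with array weights (0.0151) and without SCR replicate 3 (0.0232).

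Of 8 other receptors tested, 2 rose and 3 fell in SCR medium against NM, beside 19.3% and 15.8% of all genes. None of 5 other Smads passed in any of the 6 comparisons. The share of all genes that passed ran from 0% (SCR+CSH against SCR medium) to 39.1% (KO medium against NM). Bmpr1a, a BMP type I receptor gene, rose by 0.64 (adjusted p = 5.74e-05), and Acvr2a, an activin type II receptor gene, by 0.32 (adjusted p = 0.00664). Bmpr2 fell by 0.23 (adjusted p = 0.0075). Acvr2b fell by 0.15 (adjusted p = 0.0345), a call lost without NM replicate 2 or 3 or any SCR replicate (adjusted p up to 0.12). It was also lost after median centring (0.0677), with the replicate block (0.0893), in the 6 arrays alone (0.107) and with the mean of its probe sets (-0.10, adjusted p = 0.19). The third fall was lost with no filter (adjusted p = 0.0603), after median centring (0.0564) and with the replicate block (0.0505). That call was also lost without NM replicate 2 or 3 or SCR replicate 1 or 3 (adjusted p up to 0.127). Of the other Smads, Smad6, the second inhibitory Smad, came nearest with 0.13 (adjusted p = 0.0858), and no Smad gene of this list had an unadjusted p below 0.05 between KO and SCR medium.

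Of 9 other targets tested, 3 rose and 2 fell in SCR medium against NM, beside 19.3% and 15.8% of all genes. Gadd45b, a stress-response gene, had the largest fall of the list, 1.94 (SE 0.12, adjusted p = 1.39e-07), averaging 8.36 in KO medium, 8.84 in SCR+CSH medium, 8.62 in SCR medium and 10.57 in NM. The growth factor gene Pdgfb fell by 0.57 (adjusted p = 0.000289). Id2, an inhibitor of differentiation, rose by 0.69 (adjusted p = 0.000257) and Cdkn1a, the cell cycle inhibitor p21, by 0.57 (adjusted p = 6.16e-05). The third rise was lost without NM replicate 3 or 4 or SCR replicate 3 or 4 (adjusted p up to 0.0707). The median difference of the 9 was -0.06. In KO against SCR medium 0 of the 9 passed, where 0.27% of all genes did. An unadjusted p below 0.05 was found for 2 of the 9, Gadd45b (-0.26) and Pdgfb (-0.20), and for 1078 of all 18122 genes.

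**Figure D3:**
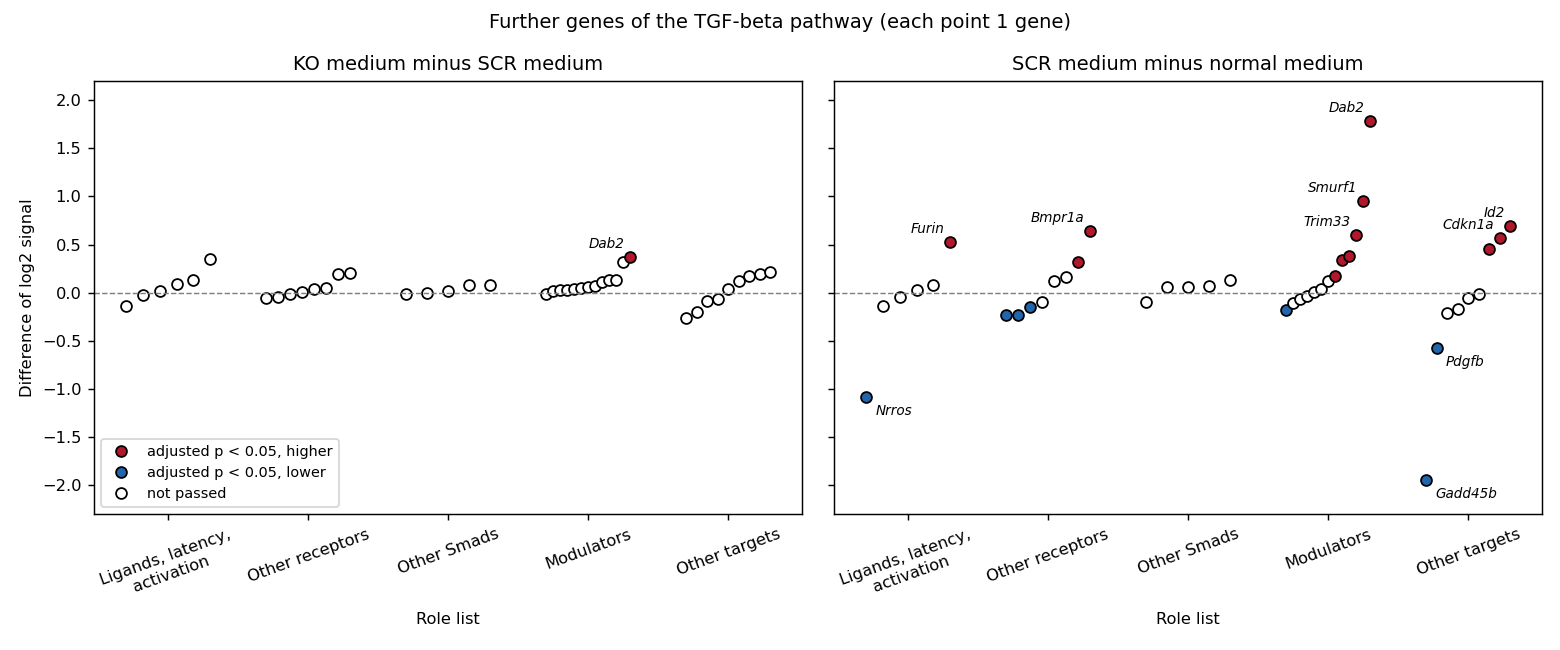
Difference of log2 signal (vertical axis) of the 41 further pathway genes tested, grouped by role list, in KO minus SCR medium (left) and SCR medium minus NM (right); each point is 1 gene, filled where adjusted p was below 0.05. Dab2 at 0.37 is the filled point on the left, and Dab2 at 1.78 and Gadd45b at -1.94 mark the extremes on the right.

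The genes most like Tgm2 over the 12 arrays, by Pearson correlation of log2 signal, were Plaur, the urokinase receptor gene (0.999), Dcun1d3 (0.991) and Il4ra, the IL-4 receptor gene (0.990). Plaur averaged 13.99 in KO medium, 12.55 in SCR+CSH medium, 12.57 in SCR medium and 9.20 in NM, with the highest mean in KO medium and the lowest in NM, as for Tgm2. The genes most like Pmepa1 were Ctla2b (0.985), Chsy1, a chondroitin synthase gene (0.983), and Vdr, the vitamin D receptor gene (0.981). Those most like Skil were the tetraspanin gene Cd53 (0.993), Nipsnap3b (0.992) and Rai14 (0.990). The 12 arrays fall into 4 groups that share a medium, and the correlations are given as a description with no test.

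**Figure D4:**
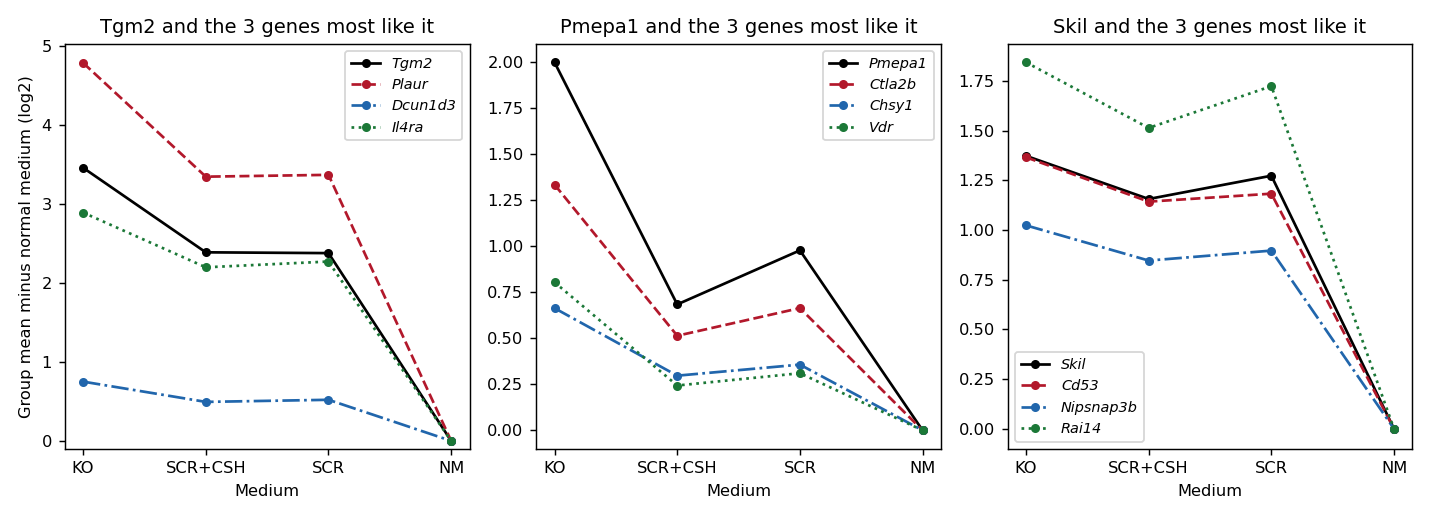
Group mean minus the mean of NM (log2, vertical axis) in KO, SCR+CSH, SCR and NM medium for Tgm2, Pmepa1 and Skil (solid lines) and the 3 genes most correlated with each over 12 arrays. Tgm2 and Pmepa1 peak in KO medium, 3.46 and 2.00 above NM, while Skil stands at 1.37, 1.16 and 1.27 in KO, SCR+CSH and SCR medium.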

How the data were processed

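RNA of RAW264.7 cells was measured on 12 Affymetrix arrays, 3 per medium. The deposited log2 values are RMA signals made by the authors in Affymetrix Expression Console on mm10, per the submitters' processing notes; no software versions are stated there. The number of arrays limits the precision.

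Of 65528 probe sets, 31026 had 1 gene symbol after updating through RefSeq (GRCm38.p6, the assembly of mm10), 1470 carried more than 1 and 33032 were unnamed here. The probe set with the highest mean stood for a gene. Genes above the array median on at least 3 arrays were tested with limma 3.58.1 (R 4.3.3): a term for medium alone, trended eBayes on 8 residual degrees of freedom, Benjamini-Hochberg over all 18122 genes. The fit was tested on simulated data.

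The members and gene lists were chosen with earlier results of these data known. Named were all 10 members, up to 4 further genes per role list and comparison by smallest p, and the 3 genes most correlated with each of Tgm2, Pmepa1 and Skil, gene models and small RNAs left out. Alternatives were other filters, scalings, eBayes without trend, array weights, the mean of probe sets, a replicate block, the 6 arrays alone and each array left out. Figures used matplotlib 3.10.9.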

Additional observations from a re-analysis of the deposited data

How the results depend on the processing

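Under the alternatives, 1230 differences of the 10 genes kept their side of the threshold, 17 lost the call, 1 gained it and 0 calls turned round. All but 1 of the losses were Tgfbr1 against NM in SCR or SCR+CSH medium (SCR medium: no filter, adjusted p = 0.0643; median centring, 0.0706; array weights, 0.199; 6 arrays alone, 0.0944), the other being Smad7. With array weights Tgfbr1 fell between KO and SCR medium (-0.28, adjusted p = 0.044); there SCR replicate 4 took a weight of 6.14. Counts over all genes moved more than those of the 10. KO against SCR medium gave 49 genes, 376 with array weights, 22 from its 6 arrays and 20 to 50 with 1 array left out. SCR+CSH against SCR medium gave 0 genes, 1 with a stricter filter and 79 with array weights. KO against SCR+CSH medium gave 345 genes, 210 with no filter, 574 after quantile normalization, 154 after median centring, 653 with array weights, 162 from its 6 arrays and 107 to 373 with 1 array left out. Same-numbered arrays of different media did not deviate together throughout. Their correlation was over 0.1 in 5 of 12 pairs (median 0.07), against 8 of 42 different-numbered pairs (median -0.05). All 3 pairs of arrays numbered 1 were over 0.1. The main fit was planned without pairs, and these correlations do not settle whether same-numbered arrays belong together. The replicate block left 2 of the 10 genes and 39 of all 18122 genes changed between KO and SCR medium. Between SCR medium and NM it left 7 of the 10, with the Tgfbr1 call lost (adjusted p = 0.0634), and 5858 of all genes. Between KO and SCR+CSH medium it left 214 of all genes. Smad3 and Smad7 were too dim for the stricter filter and gave no value under it.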
